A study of Rattus norvegicus with 16 samples.

Results

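Cck, Npy, Sst and Penk encode the precursors of cholecystokinin, neuropeptide Y, somatostatin and the enkephalins, and their mRNA was measured in 3 regions of the newborn rat cochlea. The array names 720 genes and holds 1263 probe sets besides its controls, and 6 of these carry the symbol of one of the 4 precursors: 1 for Cck (X01032_at), 1 for Npy (M15880_at), 2 for Sst (M25890_at and K02248cds_s_at) and 2 for Penk (S49491_s_at and rc_AI009300_at). The 4 genes were chosen from their signals over the same 9 groups of arrays described here. Their levels and fitted differences are therefore a description, given without a test.

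In the organ of Corti the signals of Cck, Sst and the brighter Penk probe set were higher on all cultured arrays, normoxic and hypoxic, than in native tissue. In the modiolus Npy, Sst and the same Penk probe set were higher in the same way, and in the stria vascularis Cck was. Where both groups were above background, the fitted log2 differences of normoxic culture ran from 1.34 ± 0.26 (SE) for Penk in the organ of Corti to 2.95 ± 0.32 for Penk in the modiolus. By its brighter probe set Sst was at least 11.3-fold higher in the modiolus and at least 5.69-fold higher in the organ of Corti. Cck was at least 5.68-fold higher in the organ of Corti. These bounds are over native signals not above background. The dimmer Sst probe set had smaller differences of 1.34 ± 0.75 in the modiolus and 0.86 ± 0.62 in the organ of Corti. The last has no lower bound over 1-fold, its native group being not above background. The other Penk probe set did not share the pattern, with culture differences of -0.42, -0.58 and -0.64. After hypoxia Npy was lower than in normoxic culture in each region. Cck was higher in the modiolus, over normoxic signals not above background.

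Neuropeptides are cut from longer precursor proteins in the secretory pathway, stored in dense core vesicles and released to act on G protein coupled receptors. Genes of this kind are often switched by neuronal activity, cAMP and injury through factors that bind the cAMP response element (CREB, CREM) or the AP-1 element (Jun and Fos proteins). In the inner ear, peptides are best known from the efferent fibres that reach the organ of Corti, where enkephalins occur together with acetylcholine, and neuropeptide Y is known from sympathetic fibres along the vessels.

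Each array held total RNA pooled from 12 cochleae. The organ of Corti carries the hair cells and their supporting cells, and the modiolus is the core of the cochlea with the neurons of the spiral ganglion. Endolymph is secreted by the stria vascularis. Native tissue was taken directly after dissection. Normoxic explants spent 24 h in DMEM/F12 medium with fetal calf serum, insulin, transferrin, putrescine and ciprofloxacin. Hypoxic explants spent the same time in that medium, with 5 h at an oxygen pressure of 10 to 20 mmHg from 3 h after plating and then 16 h of recovery in normoxia. All groups were of newborn rats, and the labels used here name no strain, genotype or sex. The 6 cultured groups and native organ of Corti had 2 arrays each, and native modiolus and native stria vascularis had 1 each. The labels call these last arrays fresh tissue in one field and speak of collection after cultivation in another. Explants hold a mixture of cells, so that more cells of a type and more RNA per cell cannot be told apart. The arrays are separate pools, and standard errors and p-values measure the spread between these pools only.

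Signals are in array units after the authors' scaling, which gave each array a 2% trimmed mean of 2500. The median signal per array was 555.4 to 939. Each array has 23 control probe sets for sequences foreign to the rat, and their 95th percentile, which lay between 237 and 772, serves as its background limit. A group is called not above background where none of its arrays passed that limit. A difference against such a group is a lower bound, written as at least N-fold and computed with the dim signals set to the limit. Markers were set beside the region labels. The summed signal of 4 stria vascularis markers (Kcnq1, Kcne1, Kcnj10 and Atp1b2) was 79849 in native stria vascularis, 8783 to 9112 in native organ of Corti and 6695 in native modiolus. Kcnj10 went against the other markers, with 612.8 in native stria vascularis, 864.7 and 727.4 in native organ of Corti and 933.9 in native modiolus. The sum of 10 neuron markers was 122012 to 132846 in native organ of Corti, 119301 in native modiolus and 16363 in native stria vascularis. Of 7 hair cell and supporting cell markers, 0 are named in the values used here, so that hair and supporting cells were not checked.

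Cck encodes the precursor of cholecystokinin, a peptide of gut endocrine cells and of many neurons that acts on the receptors Cckar and Cckbr. In native tissue its signal was 247 and 174 in organ of Corti, 354 in modiolus and 158 in stria vascularis. In normoxic culture it was 2467 and 2089 in organ of Corti, 276 and 228 in modiolus, and 1577 and 1790.5 in stria vascularis. After hypoxia it was 2505 and 2091, then 592 and 1318, and 2530.3 and 1639 in the same regions. All cultured organ of Corti and stria vascularis arrays thus lay above every native array and every modiolus array. In native organ of Corti, native stria vascularis and normoxic modiolus Cck was not above background.

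The fitted difference of Cck between normoxic culture and native tissue was 3.35 ± 0.42 on the scale of log2(signal + 16) in organ of Corti, at least 5.68-fold. In the stria vascularis it was 3.28 ± 0.51, at least 3.46-fold, and in the modiolus it was -0.47 ± 0.51, a sign that turned (0.71) with signals raised to the background limit. In normoxic culture the modiolus was lower than the organ of Corti by at least 3.85-fold and lower than the stria vascularis by at least 2.85-fold. Ordered by their means, the groups ran from hypoxic organ of Corti (2298 ± 293, SD, n = 2) over normoxic organ of Corti, hypoxic and normoxic stria vascularis (1684 ± 151, n = 2), and each of these overlapped its neighbour. A gap followed to hypoxic modiolus (955 ± 513, n = 2) and another to native modiolus, the one native group with Cck above background.

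Npy encodes the precursor of neuropeptide Y, a peptide of sympathetic and many central neurons that narrows vessels and dampens transmitter release. It was above background on all 16 arrays. In native tissue its signal was 3065 and 2019.9 in organ of Corti, 1457 in modiolus and 6416 in stria vascularis. In normoxic culture it was 3765 and 3017 in organ of Corti, 8632 and 13414 in modiolus, and 3745.5 and 4065 in stria vascularis. After hypoxia it was 3005 and 2161, then 4011 and 7785, and 3043 and 2516. The modiolus was thus the lowest native region and the highest region within each culture condition, while the stria vascularis was the highest native region. Each of these native values rests on 1 array.

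For Npy normoxic culture minus native tissue was 2.87 ± 0.41 in modiolus (7.32-fold), 0.44 ± 0.33 in organ of Corti, where the arrays overlapped, and -0.72 ± 0.41 in stria vascularis. In native tissue the modiolus minus the stria vascularis was -2.13 ± 0.47. In normoxic culture the same difference was 1.46 ± 0.33, with the sign turned. The modiolus minus the organ of Corti was -0.77 ± 0.41 in native tissue and 1.67 ± 0.33 in normoxic culture. Only normoxic modiolus (11023 ± 3381, SD, n = 2) stood clear of the next group at the top of the order and only native modiolus at its foot, and all groups between native stria vascularis and native organ of Corti overlapped their neighbours.

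Sst encodes the precursor of somatostatin, a peptide that inhibits hormone and transmitter release through the receptors Sstr1 to Sstr5. The rat Sst gene is a textbook case of a gene driven through a cAMP response element. The promoter windows of Sst and Npy are printed because they were the promoters found for these 4 genes. Each runs over 300 bases of the plus strand, from 250 before to 50 after the start that RefSeq annotates on build GRCr8, at chr11:90461296-90461595 for Sst and chr4:80211861-80212160 for Npy. Capitals mark the palindromic cAMP response element.
Sst promoter: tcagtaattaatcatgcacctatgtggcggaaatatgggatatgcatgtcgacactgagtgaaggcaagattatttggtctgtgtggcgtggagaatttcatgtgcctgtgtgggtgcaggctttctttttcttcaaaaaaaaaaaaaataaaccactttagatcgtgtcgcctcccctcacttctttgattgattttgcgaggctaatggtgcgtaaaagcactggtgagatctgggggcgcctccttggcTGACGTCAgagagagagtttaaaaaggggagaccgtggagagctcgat
Npy promoter: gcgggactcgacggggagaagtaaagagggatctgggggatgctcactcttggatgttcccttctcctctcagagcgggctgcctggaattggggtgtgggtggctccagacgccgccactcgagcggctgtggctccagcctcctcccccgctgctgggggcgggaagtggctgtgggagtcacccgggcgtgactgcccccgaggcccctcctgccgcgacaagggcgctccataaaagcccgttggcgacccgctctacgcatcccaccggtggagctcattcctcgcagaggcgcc
The Sst window holds the palindrome TGACGTCA, from base 253 of the window (position 3 counted from the annotated start), which 1.83% of 33469 promoter windows of the same length hold. Its short form TGACG, searched on both strands, matched only inside that palindrome and occurs in 21.2% of windows. The AP-1 element TGANTCA, found in 7.33% of windows, did not occur in it, and none of these letters occur in the Npy window on either strand. These matches describe letters in a window, and binding of a factor was not measured.

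The brighter probe set of Sst, M25890_at, had a signal of 161 and 95.6 in native organ of Corti, 265 in native modiolus and 104 in native stria vascularis. In normoxic culture it was 2200.1 and 2352 in organ of Corti, 2495 and 4532 in modiolus, and 113 and 101 in stria vascularis. After hypoxia it was 1440.1 and 2721, then 3130.4 and 4014.5, and 171 and 100.3. It was above background on 8 of 16 arrays, which were all 8 cultured arrays of the organ of Corti and modiolus. No native array and no stria vascularis array reached its limit.

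For M25890_at normoxic culture minus native tissue was 4.03 ± 0.48 in organ of Corti, at least 5.69-fold, and 3.59 ± 0.58 in modiolus, at least 11.3-fold. In the stria vascularis both groups were not above background. Over normoxic and hypoxic cultures together the modiolus was at least 8.48-fold and the organ of Corti at least 5.21-fold above the stria vascularis. Between modiolus and organ of Corti the difference was 0.70 ± 0.34, and their cultured arrays overlapped.

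The dimmer probe set of Sst, K02248cds_s_at, was above background on 4 of 16 arrays and ranged from 158 to 1767. Its highest signal was on the second normoxic modiolus array (1767), the same array that was highest for M25890_at (4532), while the first read 485. Over the 16 arrays the probe sets of Sst had a Pearson r of 0.78 as a description, both being measured on the same arrays. The fitted culture difference of the dimmer one was smaller. In the organ of Corti it was 0.86 ± 0.62, over a native group not above background and with no lower bound over 1-fold. In the modiolus it was 1.34 ± 0.75. The modiolus difference was 2.26 without the first normoxic modiolus array and 0.43 without the second.

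Penk encodes proenkephalin, the precursor of Met-enkephalin and Leu-enkephalin, which act mainly on the delta and mu opioid receptors Oprd1 and Oprm1. The brighter probe set, S49491_s_at, had a signal of 1117 and 830.5 in native organ of Corti, 1481 in native modiolus and 1784 in native stria vascularis. In normoxic culture it was 2767.5 and 2204 in organ of Corti, 12102 and 10951 in modiolus, and 3514 and 2571 in stria vascularis. After hypoxia it was 2236 and 1997, then 8941 and 12852.5, and 2241.5 and 1703. All 4 cultured modiolus arrays stood above all 8 other cultured arrays, as for 9.34% of all probe sets, and this was so for 1 of the 6 members.

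For S49491_s_at normoxic culture minus native tissue was 2.95 ± 0.32 in modiolus (7.70-fold), 1.34 ± 0.26 in organ of Corti (2.54-fold) and 0.75 ± 0.32 in stria vascularis (1.68-fold). In native tissue the modiolus minus the organ of Corti was 0.61 ± 0.32, and in normoxic culture it was 2.21 ± 0.26. The normoxic modiolus mean was 11527 ± 814 (SD, n = 2) and the hypoxic one 10897 ± 2766 (n = 2), and these overlapped. Normoxic and hypoxic organ of Corti and stria vascularis all lay between 1703 and 3514, each overlapping its neighbour in the order.

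The other probe set of Penk, rc_AI009300_at, did not share this pattern. Its signals ran from 345 to 1119, with both ends of that range in normoxic organ of Corti, and it was above background on 14 of 16 arrays. Its culture differences were -0.42 ± 0.56, -0.58 ± 0.69 and -0.64 ± 0.69 in organ of Corti, modiolus and stria vascularis. The first of these was -1.24 without normoxic organ of Corti repeat 1 and 0.41 without repeat 2. The Pearson r between the probe sets of Penk was 0.07 over the 16 arrays. Which of them measures proenkephalin mRNA cannot be told from these values, and the values given for Penk are those of S49491_s_at unless the other is named.

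**Figure D1:**
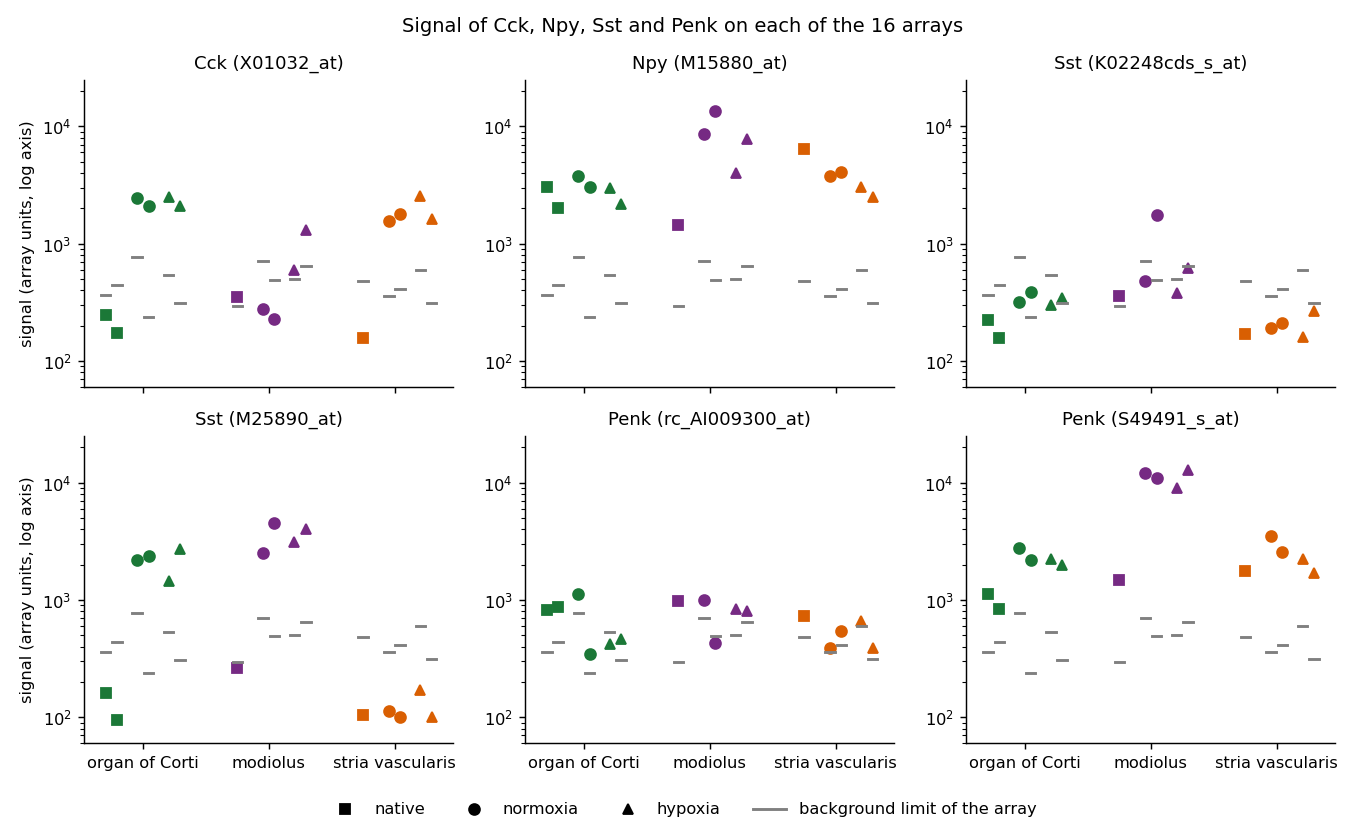
Signal of each member probe set on every array (log axis), by region and condition, with a grey line at the background limit of the same array. Cck stands between 1577 and 2530.3 in cultured organ of Corti and stria vascularis, Sst (M25890_at) is above background in cultured organ of Corti and modiolus only, and Penk (S49491_s_at) reaches 8941 to 12852.5 in cultured modiolus.

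Read across the members, 4 of 6 probe sets had all 4 cultured organ of Corti arrays above both native ones (Cck, both of Sst, and S49491_s_at of Penk). This was so for 19.4% of all 1263 probe sets. For K02248cds_s_at native organ of Corti was not above background, and only 1 array in each of its culture conditions was. In the modiolus 4 of 6 had all 4 cultured arrays above the single native array (Npy, both of Sst, and S49491_s_at), beside 28.7% of all probe sets. In the stria vascularis 1 of 6 did (Cck), beside 23.7%. These values chose the members, so nothing is read from the counts. The members did not share one regional pattern: Cck was lowest in the modiolus among the normoxic cultures, Npy and Penk were highest there, and Sst was not above background in the stria vascularis.

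**Figure D2:**
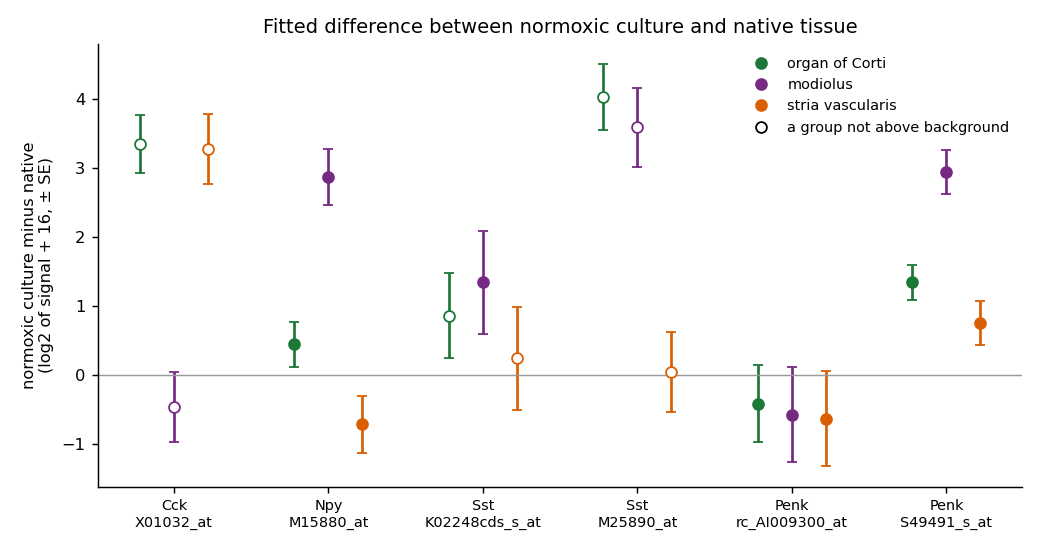
Fitted difference between normoxic culture and native tissue for each member probe set and region, on the scale of log2(signal + 16), with bars of 1 SE. Open points mark differences in which at least 1 group was not above background. Cck is high in organ of Corti (3.35) and in stria vascularis (3.28), Npy in the modiolus (2.87), and Sst (M25890_at) in the organ of Corti (4.03) and modiolus (3.59).

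Several other measures moved with culture. GAPDH has control probe sets at both ends of its mRNA. The 3′ over 5′ signal, higher where RNA is degraded, was 3.388 to 4.763 on native arrays and 1.075 to 1.39 on cultured ones. The same ratio of beta-actin did not shift in this way. It was 1.667 to 2.406 on native and 1.731 to 2.778 on cultured arrays, and these overlapped. Scan session 1 held every native array, session 2 each culture's first repeat and session 3 each second repeat. Culture and scan session therefore cannot be told apart. The summed signal of the neuron markers was 119301 in native modiolus and 45932 to 53451 in normoxic modiolus, where Npy, Sst and Penk were high. Most of the normoxic modiolus sum was Gap43 (26143 and 24195) and Eno2 (15371 and 14412.5). Other markers fell further there, such as Nefh from 15631 to 483 and 392, and Sncg from 7373 to 340 and 372.5. In the organ of Corti the sum was 71195 to 78334 in normoxic culture, and in the stria vascularis it was 22788 to 23418. Of the 10 neuron markers 7 fell and 0 rose in culture as a mean over the 3 regions (limma), beside 18.7% and 13.3% of all probe sets. Within regions some rose: Gap43, a protein of growing axons, in the modiolus (0.97 ± 0.32, adjusted p = 0.048), and Eno2 (1.10 ± 0.20, adjusted p = 0.0026) and Sncg (at least 3.405-fold, adjusted p = 0.0025) in the stria vascularis. All 10 were above background in native and normoxic organ of Corti and in native modiolus, and 8 in normoxic modiolus.

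Neuropeptide Y and the enkephalins also belong to catecholamine neurons and chromaffin cells. Of 5 measured markers of these cells (Th, Dbh, Ddc, Slc18a2 and Chrna3) 0 passed the test for culture and 0 had an unadjusted p under 0.05 by limma. Of all 1263 probe sets 404 and 513 did. Their summed signal was 3994 in native modiolus and 3910 to 5135 in normoxic modiolus, and 1888 and 1674 to 1739 in stria vascularis. In the modiolus Slc18a2 was at 838.8 in native tissue and 1743.7 and 2231.7 in normoxic culture, and Th at 1671.1, then 354.1 and 1707.4. Over the 3 conditions Slc18a2 alone of the 5 passed as higher in the modiolus. It did so against organ of Corti (2.02 ± 0.47, limma adjusted p = 0.0074) and stria vascularis (1.49 ± 0.50, adjusted p = 0.048). Gad1 and Slc32a1, the 2 measured markers of the brain's inhibitory interneurons that often hold Npy, Sst or Cck, moved apart in the modiolus. Gad1 was at 832.8 in native and 155.7 and 58.7 in normoxic modiolus (at least 1.412-fold lower, adjusted p = 0.011), and Slc32a1 at 149.4 in native and 830.6 and 831.6 in normoxic modiolus (adjusted p = 0.065). The sum of 5 Schwann cell and myelin markers was 100014 in native modiolus and 27494 to 30328 in normoxic modiolus. The macrophage marker Itgam was not above background in any group. The sum of 2 fibroblast and mesenchyme markers (Vim and Pdgfra) was highest in the modiolus. In native tissue it was 179326 there, 90393 to 97302 in organ of Corti and 87533 in stria vascularis. In normoxic culture it was 134576 to 142602, then 92759 to 98064 and 61790 to 62619. The part of these cells and of RNA quality in the differences of the 4 precursors was not tested.

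Hypoxic and normoxic cultures of the same repeat were scanned in the same session, which gives 3 regions in each of 2 sessions. Npy was lower after hypoxia in 6 of 6 such pairs. In session 2 the hypoxic minus normoxic difference was -0.32 in organ of Corti, -1.10 in modiolus and -0.30 in stria vascularis, and in session 3 it was -0.48, -0.78 and -0.69. The fitted mean over the regions was -0.61 ± 0.19. In each region both hypoxic arrays lay below both normoxic arrays, which was so for 9 of 1263 probe sets (0.713%), and for 1 of the 6 members. These same arrays chose the gene. The summed neuron markers were at 71195 to 78334 in normoxic and 53942 to 54387 in hypoxic organ of Corti, and at 45932 to 53451 and 43014 to 54472 in modiolus. In the stria vascularis their sum was higher after hypoxia, at 22788 to 23418 in normoxia and 26596 to 31222 in hypoxia. Most of that sum was Eno2, at 15239 and 15115 in normoxia and 23095 and 20760 in hypoxia. The other markers moved in both directions there. Mapt was higher (2024.5 and 2356, then 2403.5 and 2444) and Sncg lower (1594 and 1711, then 941 and 261). The summed catecholamine markers were at 3910 to 5135 in normoxic and 3617 to 4757 in hypoxic modiolus, and the part of these cells in the difference was not tested.

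Cck went the other way in the modiolus, from 276 and 228 in normoxia to 592 and 1318 after hypoxia. The fitted difference there was 1.75 ± 0.42, at least 1.497-fold, with 1.06 in session 2 and 2.45 in session 3. In session 2 the hypoxic signal of 592 lay below the background limit of the normoxic array (705.9). In session 3 the hypoxic signal of 1318 lay above that limit (493). The bound over 1-fold thus rests on session 3. In the organ of Corti it was 0.01 ± 0.42 and in the stria vascularis 0.28 ± 0.42, with overlapping arrays in both, beside a mean of 0.68 ± 0.24 over the 3 regions. Hypoxic modiolus stayed below the other hypoxic regions, by 1.36 ± 0.42 against the organ of Corti.

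Sst (M25890_at) was at -0.20 ± 0.48, 0.08 ± 0.48 and 0.26 ± 0.48 after hypoxia in organ of Corti, modiolus and stria vascularis, with overlapping arrays in each region. Penk (S49491_s_at) was lower in 5 of 6 pairs, with a mean of -0.31 ± 0.15. The one region in which its hypoxic and normoxic arrays did not overlap was the stria vascularis (-0.62 ± 0.26). The hypoxia and culture comparisons share the normoxic arrays, so that their values for one gene are not independent of each other.

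**Figure D3:**
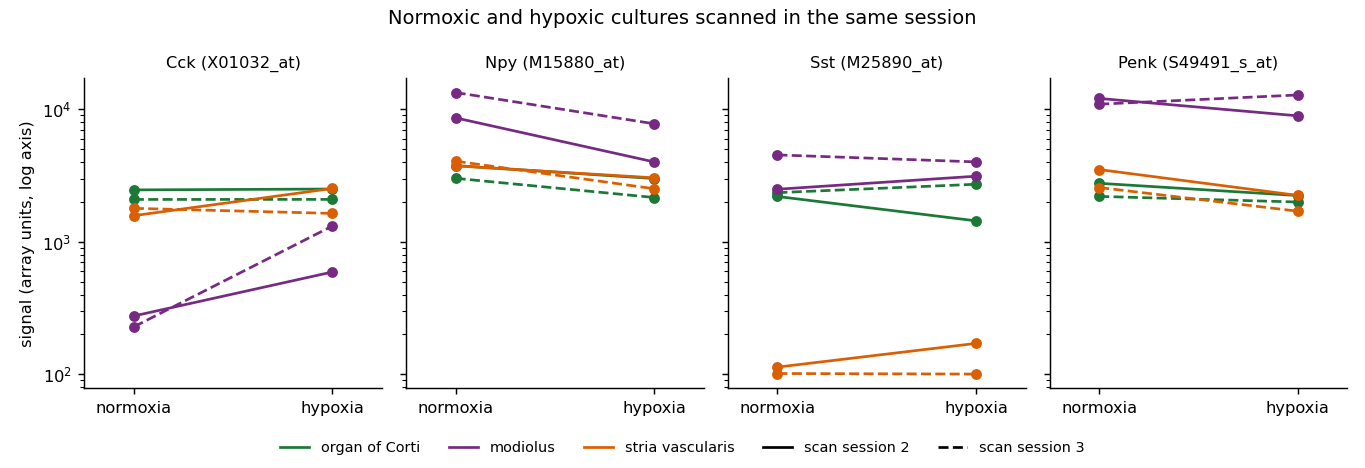
Signal (log axis) of the brighter probe set of each member in normoxic and hypoxic culture, with lines joining the arrays of one region scanned in the same session. All 6 lines of Npy slope down, both modiolus lines of Cck slope up, and the lines of Sst and Penk run in both directions.

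Other genes of the peptide system were tested in the same limma fit, with Benjamini-Hochberg adjusted p-values over 1263 probe sets and 1 mean per group. The lists were drawn up with earlier results of these data known, so the counts of list genes are a description. Of 39 other peptide precursors 11 are on the array. In culture, averaged over the 3 regions, 0 of these rose and 2 fell, beside 13.3% of all probe sets that rose and 18.7% that fell. Their median difference was -0.02 and that of all probe sets -0.14. Tac1, the precursor of substance P in sensory neurons, fell by 1.73 (SE 0.21, adjusted p = 3.5e-05). Its signal was 9827 in native modiolus and 2216 and 1203 in normoxic modiolus, and 4428 and 3688 against 1009 and 973 in organ of Corti. Nmu, the precursor of neuromedin U, fell by 0.49 (SE 0.17, adjusted p = 0.041), a call lost without any one of 6 arrays (-0.52 to -0.39) and with the replicate block (-0.39). Within the organ of Corti alone, Tac3, the neurokinin B precursor, rose by 2.19 (SE 0.65, at least 1.68-fold, adjusted p = 0.033). In that region Tac1 and the precursor Crh fell (adjusted p = 0.00066 and 0.047), Crh between groups not above background.

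The measured precursors close to the members did not pass. Pdyn, the precursor of the dynorphins, ranged from 183 to 1069 over the 16 arrays and Pnoc, the precursor of nociceptin, from 3276 to 8551. Pnoc was at -0.19 ± 0.13 in culture (adjusted p = 0.29). The range of Pdyn reached into the background limits. In the modiolus Tac1 was thus lower and Penk (S49491_s_at) higher in normoxic culture than in native tissue.

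Of 17 receptors of the member peptides 8 are on the array, among them Npy1r, Npy5r, Sstr2, Sstr4 and the opioid receptors, and none for cholecystokinin. In culture 0 rose and 2 fell, beside 13.3% and 18.7% of all probe sets. Their median was -0.28, beside -0.14 for all probe sets. Sstr4, a somatostatin receptor, fell by 0.71 (SE 0.19, adjusted p = 0.013). Its signal in the modiolus was 3466 in native tissue and 1427 and 1349 in normoxic culture. By region the difference was -1.31 ± 0.35 in modiolus (adjusted p = 0.019), -0.04 ± 0.29 in organ of Corti, where Sst was high as well, and -0.77 ± 0.35 in stria vascularis (adjusted p = 0.2), where Sst was not above background. Oprk1, the kappa opioid receptor, which binds dynorphins, fell by 1.42 (SE 0.43, adjusted p = 0.023), a mean that includes stria vascularis groups not above background. That call was lost without native organ of Corti repeat 1 (-1.36) and without normoxic stria vascularis repeat 2 (-1.28), and with the replicate block (-1.06). The mu receptor Oprm1 was at 1.13 ± 0.43 (adjusted p = 0.061), and both Npy receptors did not pass.

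Oprk1 was brightest in the organ of Corti. Its signal there was 20270 and 16018.5 in native tissue, 10918 and 9891 in normoxic culture and 14658 and 9977 after hypoxia. In the modiolus it was 2217 in native tissue and 384 to 414 in the 4 cultures, and in the stria vascularis 35.8 to 370.0. Averaged over the 3 conditions organ of Corti was at least 30.4-fold above stria vascularis (log2 difference 5.92 ± 0.40, adjusted p = 8.2e-07). The modiolus was at least 14.5-fold below organ of Corti (-4.18 ± 0.40, adjusted p = 9.7e-06). Sstr2, another somatostatin receptor, was at least 1.27-fold lower in modiolus than in organ of Corti arrays (-1.52 ± 0.46, adjusted p = 0.031), a call lost without any one of 7 arrays (-1.56 to -1.26). Sstr4 was higher in the modiolus (0.89 ± 0.18, adjusted p = 0.0028).

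Over the 3 conditions, 2 other precursors were higher and 1 lower in the modiolus than in the organ of Corti, beside 12.5% and 11.4% of all probe sets, and 3 were higher and 1 lower than in the stria vascularis, beside 16.7% and 8.71%. Tac1 was higher in the modiolus in both comparisons, by 0.91 ± 0.19 (adjusted p = 0.0042) and 2.05 ± 0.21 (adjusted p = 1e-05). Vgf, the precursor of several peptides of active neurons, was higher by 0.54 ± 0.18 (adjusted p = 0.045) and 1.00 ± 0.19 (adjusted p = 0.002), and the first of these calls was lost without any one of 11 arrays (0.41 to 0.58). Tac3, the neurokinin B precursor, was the lower one in both, with brighter groups that were not all above background, so that no size is given, and its calls were lost without any one of 9 and 8 arrays. Between the organ of Corti and the stria vascularis 3 were higher and 1 lower (Pnoc, -0.57 ± 0.12, adjusted p = 0.0041), beside 11.2% and 5.94%. The higher ones were Tac1 (1.14 ± 0.19, adjusted p = 0.00094), Nmu (0.67 ± 0.15, adjusted p = 0.0078) and the galanin precursor Gal (adjusted p = 0.018), with brighter groups not all above background and a call lost without any one of 3 arrays (1.55 to 1.78).

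Cpz, a carboxypeptidase and the 1 gene measured here of 23 for peptide processing, storage and breakdown, fell in culture by 1.98 (SE 0.26, adjusted p = 6.1e-05). It was at least 7.45-fold lower in the modiolus than in the organ of Corti (adjusted p = 1.9e-06). The convertases and granins that cut and store the 4 precursors were not analysed here.

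Of a list of 22 genes of the CREB and AP-1 factors, other inducible factors and kinases of the cAMP and calcium pathways, 14 are on the array. These are Creb1, Crem, Fos, Fosl1, Fosl2, Jun, Junb, Jund, Cebpb, Egr1, Nr4a1, Prkar2a and Prkar2b (subunits of protein kinase A) and the kinase Camk4. In culture 7 of the 14 rose (Crem, Fosl1, Fosl2, Jun, Junb, Cebpb and Egr1) and 0 fell, beside 13.3% and 18.7% of all probe sets, with a median of 0.90 beside -0.14 for all probe sets. This list too was drawn up with earlier results of these data known, so nothing is read from the count. Cebpb, a factor of the acute phase response, rose by 3.79 ± 0.13 (adjusted p = 2.3e-10), Fosl1 by 3.26 ± 0.36 (at least 2.55-fold, adjusted p = 1.6e-05), Jun by 2.59 ± 0.16 (adjusted p = 7.8e-08) and Junb by 2.00 ± 0.17 (adjusted p = 2.3e-06). Crem, which encodes activators and repressors that bind the cAMP response element, rose by 1.30 ± 0.18 (adjusted p = 9.8e-05). Creb1 and Fos did not pass.

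The modiolus held the highest cultured signals of several of these factors. Jun was at 610 in native modiolus and 11320.0 and 12889 in normoxic modiolus, against 3986 and 4274 in normoxic organ of Corti and 2631 and 2061 in normoxic stria vascularis. Its culture difference was 4.27 ± 0.30 in modiolus, 1.84 ± 0.24 in organ of Corti and 1.65 ± 0.30 in stria vascularis, and it differed between the regions (limma F test, adjusted p = 0.0058). Nr4a1, an immediate early nuclear receptor, differed as well (adjusted p = 0.014), with -0.72, -1.41 and 1.00 in organ of Corti, modiolus and stria vascularis. Jun and Nr4a1 were the genes among the 34 list genes that passed this test, beside 3.33% of all probe sets. For both, native modiolus and native stria vascularis were 1 array each, with Nr4a1 at 17792 and 1757 there. Of the 14 genes 7 were higher and 0 lower in the modiolus than in the organ of Corti (beside 12.5% and 11.4% of all probe sets), and 7, with Prkar2a among them, were higher and 0 lower than in the stria vascularis (beside 16.7% and 8.71%), with Crem at 1.34 ± 0.17 against the organ of Corti (adjusted p = 8.4e-05) and 1.10 ± 0.18 against the stria vascularis (adjusted p = 6e-04).

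After hypoxia 0 of the 34 list genes passed, beside 0.158% of all probe sets, and 1 had an unadjusted p under 0.05 by limma. This was Fosl2 at 0.54 ± 0.20 (adjusted p = 0.46). Among the receptors Oprm1 had the smallest p, at -0.44 ± 0.37 (adjusted p = 0.92), and among the precursors Pnoc at 0.20 ± 0.11 (adjusted p = 0.84).

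**Figure D4:**
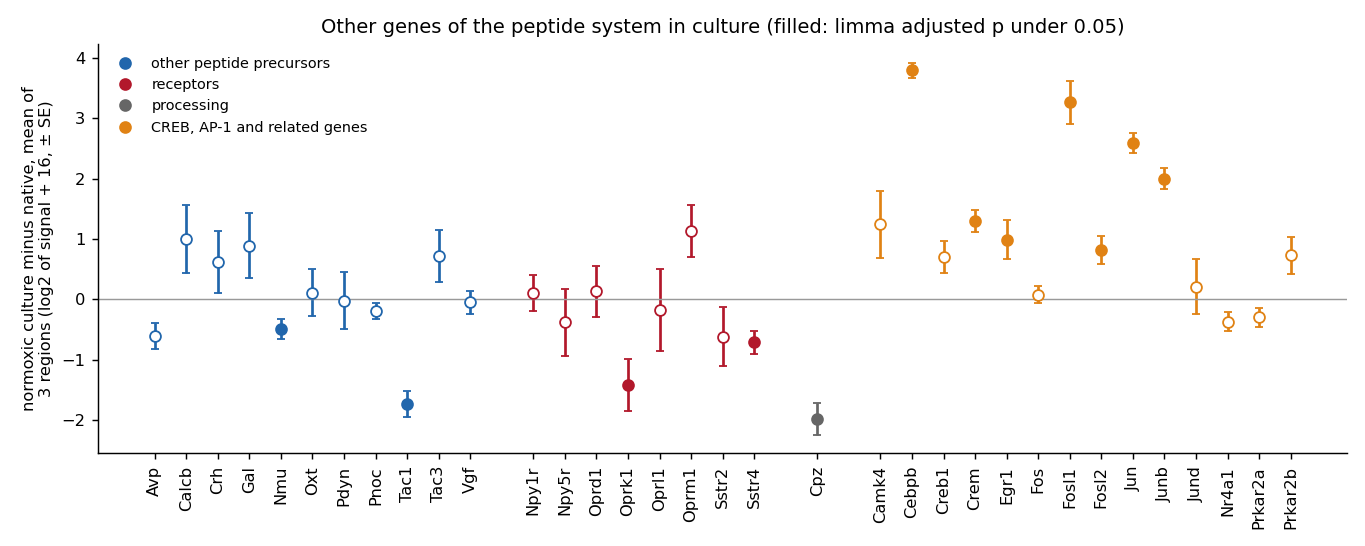
Difference between normoxic culture and native tissue, averaged over the 3 regions (log2(signal + 16), bars of 1 SE), for the 34 measured genes of the 4 lists. Filled points passed at a limma adjusted p under 0.05. The 7 filled factors lie above 0, and the filled precursors, receptors and Cpz lie below it.

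For each member the 3 probe sets most like its brighter probe set were found by Pearson r over the 16 arrays. The candidates were 982 probe sets of named genes above background in at least 1 group. These r describe arrays that share scan sessions and scaling, and carry no p. Penk lay closest to Crem (r = 0.97, and 0.97 over the 12 cultured arrays alone), then to the chemokine Xcl1 (0.96) and the cytokine Il6 (0.95). Xcl1 was above background in the 4 modiolus cultures only, at 929.8 to 1430, and read 77.7 to 294.0 elsewhere. Il6 read 1236.6 to 2183 in those cultures and 23.9 to 472.2 elsewhere. The r of Xcl1 and Il6 thus largely set bright modiolus cultures against dim arrays. Crem read 957 and 1186 in native organ of Corti, 1722 in native modiolus and 1435 in native stria vascularis. In the 4 modiolus cultures it read 5720.4 to 7463, and in the cultures of the other regions 1661.3 to 2775. The modiolus cultures thus stood apart from all other arrays for Crem as well.

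Cck lay closest to Prkar2b, a regulatory subunit of protein kinase A (0.92), then to the glucose transporter Slc2a1 (0.88) and the cytokine Mif (0.83). Prkar2b is dim, with signals of 132 to 606, near the background limits. Slc2a1 is bright and had its lowest cultured signals in the modiolus too, at 27980.0 and 15937 in normoxia, against 67756 and 67660.0 in normoxic organ of Corti. Npy lay closest to Gipc1 (0.83), which encodes a scaffold protein, then to Penk itself (0.79) and the growth factor Fgf5 (0.79). Sst lay closest to Syt4, a synaptotagmin of dense core vesicles, by both probe sets of that gene (0.85 and 0.84), then to the serotonin receptor Htr2a (0.80). Htr2a read 589.8 to 776 in the 4 modiolus cultures and 10.9 to 197 elsewhere. In the stria vascularis Syt4 (U14398_g_at) read 200.2 to 449, and in the 4 modiolus cultures 3247 to 6215. In the organ of Corti, where Sst was also high in culture, Syt4 read 796.0 and 462.5 in native tissue and 777.2 to 1448.6 in the 4 cultures, and these overlapped.

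**Figure D5:**
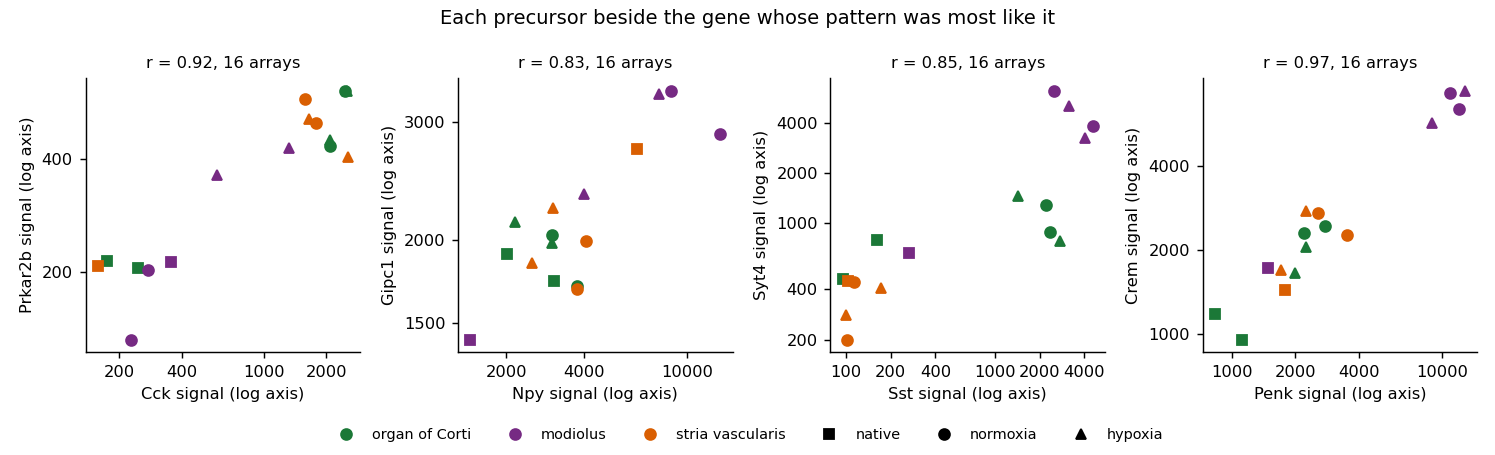
Signal of the brighter probe set of each member against the gene with the highest Pearson r over the 16 arrays (both axes logarithmic), coloured by region with shapes for the condition. The 4 cultured modiolus arrays stand apart at the top for Penk with Crem, and cultured organ of Corti and stria vascularis stand together for Cck with Prkar2b.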

How the data were processed

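The arrays were Affymetrix rat neurobiology arrays with 1322 probe sets, of which 59 are controls. The authors deposited 1 signal intensity per probe set and array on a linear scale, and the values show that they had scaled each array to a 2% trimmed mean of 2500. The summary software and background correction are not given in the sources used here. The run records, deposited per array, hold no expression values and gave only the scan session. Gene symbols came from the platform annotation, updated through RefSeq (GRCr8): 1137 probe sets have 1 symbol, 8 several and 118 none, and 1132 matched. Promoters came from RefSeq (GRCr8) and were found for 2 of 4 genes.

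Log2(signal + 16) was modelled with limma 3.58.1 under R 4.3.3 (statmod 1.5.0 for the random block), with 1 mean for each of 9 groups, empirical Bayes moderation with a variance trend and 7 residual degrees of freedom. The single native modiolus and native stria vascularis arrays are thus assumed to vary like the other groups. Two-sided p-values were adjusted by Benjamini-Hochberg over 1263 probe sets, with 0.05 as the threshold. Each list gene stands for its brightest probe set. The members and lists were chosen with earlier results of these data known. Named were all member probe sets and all receptors that passed. Of the other list genes, up to 4 per list with the largest differences among those that passed were named. Where none passed, those with the smallest p were named. Beside them stand single genes whose values were seen first (Pdyn, Creb1, Fos, Npy1r, Npy5r, in culture Crem, Pnoc and Oprm1, and in cultured organ of Corti Tac3 and Crh). The fit was tested on simulated data. Alternatives were other pseudocounts, quantile normalization, median centring, no variance trend, signals raised to the background, dim probe sets left out, any probe set of a gene, a replicate block, the session as a random block, single regions, and each array left out. The number of arrays limits the precision.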

Additional observations from a re-analysis of the deposited data

Results flagged for a closer look

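For 2 of the members the culture difference had opposite directions in a pair of regions, with every normoxic array above every native array in one region and below in the other, and these contrasts were not tested because the same values chose the genes. For Npy the modiolus minus the stria vascularis was 3.59 (log2), with 1 native array in each. For Cck the organ of Corti minus the modiolus was 3.83 and the modiolus minus the stria vascularis was -3.76. These values for Cck rest on native organ of Corti, native stria vascularis and normoxic modiolus signals not above background. With signals raised to the background limit its difference in the modiolus was 0.71, so that the opposite directions did not hold.

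Among the list genes, the culture difference of Jun (limma F test, adjusted p = 0.0058) and of Nr4a1 (adjusted p = 0.014) differed between the 3 regions. Jun was higher in culture in each region, while Nr4a1 was lower in the modiolus (-1.41) and higher in the stria vascularis (1.00). Native modiolus and native stria vascularis were 1 array each.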

How the results depend on the processing

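With signals raised to the background limit, the culture difference of Cck was 2.46 in organ of Corti, 0.71 in modiolus and 1.76 in stria vascularis, that of Sst (M25890_at) in the organ of Corti was 2.46, and the mean hypoxia difference of Cck was 0.29. By region alone the hypoxia difference of Cck was 0.01 (organ of Corti), 1.75 (modiolus) and 0.28 (stria vascularis), and that of Penk (S49491_s_at) in the stria vascularis was -0.62. Over the alternatives tried, the culture difference of Npy in the modiolus lay between 2.55 and 3.19 and that of Penk (S49491_s_at) between 2.87 and 3.09. Leaving out single arrays, the culture difference of Cck in the organ of Corti ran from 3.12 to 3.59, and the mean hypoxia difference of Npy from -0.77 to -0.45. The culture difference of Penk rc_AI009300_at in the organ of Corti ran from -1.24 to 0.41 in the same way. Of the 34 list genes 12 passed for culture, beside 404 of all 1263 probe sets, and 9 to 14 passed without single arrays. Of the named list genes, Vgf, Sstr2, Gal, Nmu and Tac3 lost a call most often. Oprk1 (-1.06) and Nmu (-0.39) for culture were lost with the replicate block. Same-numbered arrays correlated at -0.01 to 0.28, over 0.1 in 10 of 15 pairs and not in every one, so the main fit has no block, although the number of a culture also marks its scan session. With the replicate block 12 list genes passed for culture and 17 between modiolus and organ of Corti. The main count there was 14, beside 302 of all 1263 probe sets.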
